A study of Mus musculus with 2 samples.

Results

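Platelet and megakaryocyte genes were read in RNA-Seq of sorted aortic macrophages from dyslipidemic mice. The set was 10 genes, taken by gene symbol from a table of 54532 genes, and each symbol matched 1 row. It was split into 7 genes better known from platelets and their precursors than from macrophages, here called platelet-restricted (Ppbp, Gp1bb, Gp9, Itga2b, Treml1, Tubb1 and Clec1b, the last also found in some myeloid cells), and 3 genes that macrophages also make (Pf4, Thbs1 and F13a1).

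The study compared 2 models of dyslipidemia, defined by syndromes of traditional Chinese medicine, in male ApoE-/- mice with the strain background C57BL/6J and an age label of 6 weeks. Whether that age is at the start of treatment or at sampling is not stated. The PDR (phlegm-dampness retention) group had a high-fat diet for 4 weeks. The SKYD (spleen and kidney Yang deficiency) group had propylthiouracil, which blocks thyroid hormone synthesis, at 10 mg/kg/day for 4 weeks and then a high-fat diet for 2 weeks. Aortic cells were sorted on F4/80 and CD11b, and the cells of 5 mice were pooled into 1 library per group. Syndrome, drug, length of diet, total time of treatment and any difference in age at sampling cannot be told apart in this design. With 1 library per group no difference had a replicate check, so no p-value is given. Loss of ApoE was common to both groups, and no library of wild-type mice was used here.

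Megakaryocytes are large bone marrow cells that shed platelets, which have no nucleus and carry RNA inherited from the megakaryocyte. Platelets store chemokines and adhesive proteins in alpha granules, bind injured vessel walls through glycoprotein receptors, and stick to leukocytes, including monocytes and macrophages. Macrophages also transcribe several genes named for platelets, above all the chemokine Pf4 and the coagulation factor F13a1.

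Values are FPKM, read counts scaled by the authors to gene length and to a size per library, so levels can be compared between genes. Multiplied by gene length, every FPKM above 0 was a whole multiple of 1 value per library, which gave back 23086889 reads on genes in PDR and 25427863 in SKYD. The sizes that the FPKM imply, 23487992 and 24993633, are not these totals, and scaling to the totals instead would make every ratio of PDR to SKYD 3.50% higher. Ratios are FPKM in one library divided by FPKM in the other, with exact 95% Clopper-Pearson intervals on how the reads split between the libraries. These intervals cover counting error only and compare 2 libraries, not the conditions. In bulk RNA, fewer cells of a type and less RNA per cell cannot be told apart.

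The 2 parts of the set differed in direction. Pf4, Thbs1 and F13a1 were all higher in SKYD, by 1.83 to 12.1 times. Of the 7 platelet-restricted genes, 6 had reads, and the ratios of PDR to SKYD ran from 1.03 (Clec1b) to 3.42 (Itga2b). Itga2b, Treml1 and Tubb1 were higher in PDR, Ppbp was slightly higher, Clec1b did not differ beyond counting error, and for Gp9 this depended on the scaling. Among genes with at least 50 reads over both libraries, 11.1% of 12919 had a ratio above 2 toward PDR and 12.5% had one above 2 toward SKYD. At that limit 9 of the 10 genes were counted: 3 of the 6 platelet-restricted genes passed 2 toward PDR and none toward SKYD, and 2 of the 3 macrophage-shared genes passed 2 toward SKYD. On the planned scale, log2(FPKM + 1) with a mean FPKM of at least 1, low levels are pulled together: 7.38% of 10399 tested genes were past 2-fold toward PDR and 6.91% toward SKYD. There 8 of the 10 genes were tested, 0 of the 5 platelet-restricted ones were past 2-fold, and Pf4 and Thbs1 were past it toward SKYD. Pf4 and Thbs1 are among the genes that the authors picked from these libraries, so neither count of macrophage-shared genes is independent of that choice. Tubb1 lay just under the line, at a difference of 0.998, and Treml1 at 0.92. Itga2b had a mean FPKM of 0.843 and Gp1bb of 0, and both were left out of the tested genes.

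**Figure D1:**
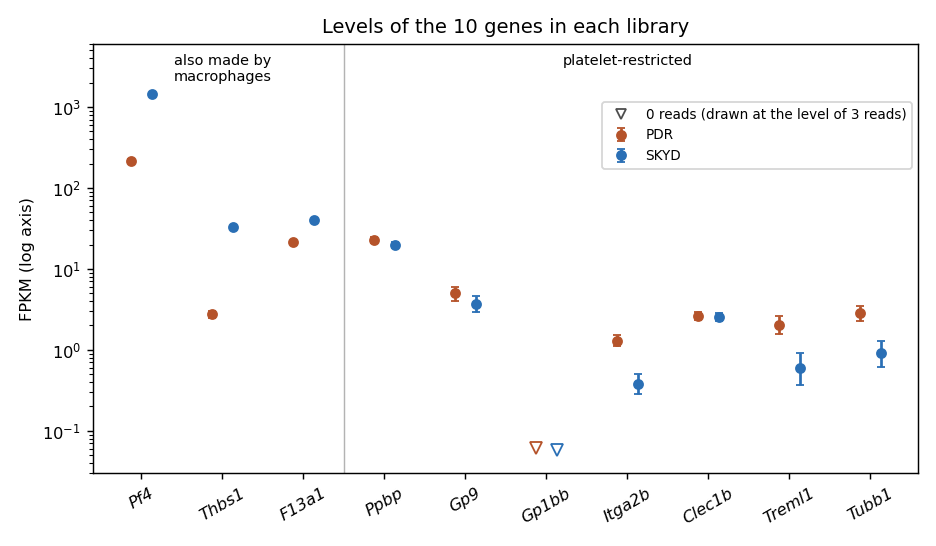
FPKM of each of the 10 genes in the PDR and SKYD libraries on a log axis, with exact Poisson 95% intervals for counting error (1 pooled library per group). Pf4, Thbs1 and F13a1 are higher in SKYD, Itga2b, Treml1 and Tubb1 are higher in PDR, and Gp1bb, with 0 reads in both, is drawn at the level that 3 reads would give.

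The chemokines Pf4 (platelet factor 4, CXCL4) and Ppbp (pro-platelet basic protein, the precursor of CXCL7) are both cargo of alpha granules, and they are neighbours in the genome. Both lie on the plus strand of chromosome 5 in GRCm38 coordinates, Ppbp (ENSMUSG00000029372) at chr5:90768518-90770063 and Pf4 (ENSMUSG00000029373) at chr5:90772435-90773383, with 2371 bases between them. No other gene of the table lay within 5 kb of either. The 250 bases before the start of each are shown because these adjacent genes differed in direction. They come from RefSeq (build GRCm38.p6, plus strand), at chr5:90768268-90768517 for Ppbp and chr5:90772185-90772434 for Pf4. Capitals mark the ETS core GGAAG on either strand (CTTCC on the other) and the GATA motifs AGATAA or TGATAA on either strand (TTATCT or TTATCA).
Ppbp: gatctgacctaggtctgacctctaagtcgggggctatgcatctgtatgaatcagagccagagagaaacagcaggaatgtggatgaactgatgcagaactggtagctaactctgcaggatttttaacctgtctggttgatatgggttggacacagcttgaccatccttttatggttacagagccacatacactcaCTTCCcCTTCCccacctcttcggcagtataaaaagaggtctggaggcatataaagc
Pf4: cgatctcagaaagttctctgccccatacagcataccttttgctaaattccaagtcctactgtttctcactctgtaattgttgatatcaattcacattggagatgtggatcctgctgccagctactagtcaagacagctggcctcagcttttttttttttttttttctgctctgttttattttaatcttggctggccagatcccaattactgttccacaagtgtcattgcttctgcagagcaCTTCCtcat
Ppbp held 2 matches to the ETS core and Pf4 held 1, and neither held a GATA match. Over all 32851 promoter windows of this length, 64.1% held the ETS core and 16.6% held a GATA match, so an ETS match is common. A match describes the letters in the window and is not evidence of binding.

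Pf4 was the most abundant gene of the set in both libraries. Its FPKM was 218 in PDR (3690 reads) and 1446 in SKYD (26049 reads), 6.63 times higher in SKYD (95% interval 6.41 to 6.87). Its neighbour was nearly level. Ppbp had an FPKM of 23.0 in PDR (585 reads) and 19.8 in SKYD (537 reads), and PDR was 1.16 times SKYD (95% interval 1.03 to 1.31). The level of Pf4 was therefore 9.47 times that of Ppbp in PDR (95% interval 8.68 to 10.4) and 72.9 times in SKYD (95% interval 66.9 to 79.5). The pair did not keep 1 ratio: the Pf4 level moved between the libraries and the Ppbp level stayed close.

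Thbs1 encodes thrombospondin, an adhesive glycoprotein released from alpha granules and also secreted by macrophages. It lies on chromosome 2 (ENSMUSG00000040152, chr2:118111876-118127133, plus strand). Its FPKM was 2.75 in PDR (392 reads) and 33.1 in SKYD (5031 reads), 12.1 times higher in SKYD (95% interval 10.9 to 13.4). This was the widest ratio of the 10 genes. Relative to Ppbp, Thbs1 stood at 0.119 times its level in PDR and at 1.67 times in SKYD, so the order of these genes was opposite in the 2 libraries. A lincRNA gene, Gm29233, lies inside Thbs1 on the other strand and was listed at 0 in both. Of the nearby genes on the other strand, Gm13986 had 44 reads in PDR and 128 in SKYD, and Fsip1 had 10 and 25.

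F13a1 encodes the A subunit of coagulation factor XIII, which cross-links fibrin and is made by megakaryocytes, monocytes and tissue macrophages. It lies on the minus strand of chromosome 13 (ENSMUSG00000039109, chr13:36867178-37050244). Its FPKM was 21.7 in PDR (3432 reads) and 39.7 in SKYD (6684 reads), 1.83 times higher in SKYD (95% interval 1.76 to 1.91). F13a1 thus had the same direction as Pf4 and Thbs1 but stayed under 2-fold. Its antisense neighbours Gm30489 and Gm49144 were listed at 0 in both libraries, and Gm47675, downstream on the same strand, had 1 read in PDR and 4 in SKYD.

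The surface receptors of the platelet differed among themselves. The GPIb-IX-V complex, the receptor for von Willebrand factor, is built from Gp1ba, Gp1bb, Gp5 and Gp9. Gp9 (ENSMUSG00000030054, chromosome 6, chr6:87778072-87779768, plus strand) had an FPKM of 4.98 in PDR (103 reads) and 3.72 in SKYD (82 reads), a ratio of 1.34 (95% interval 0.990 to 1.81). The interval includes 1, but with scaling to the read totals, chosen after seeing the data, the ratio was 1.38 and the interval 1.03 to 1.87, so whether Gp9 differed beyond counting error depended on the scaling. Its subunit partner Gp5 had 90 reads in PDR and 30 in SKYD, and its FPKM in PDR was 3.19 times that in SKYD (95% interval 2.09 to 5.0). Gp1ba had 18 reads in PDR and 8 in SKYD, a ratio of 2.39 (95% interval 0.991 to 6.36). The interval of Gp5 does not include 1 with either scaling. That of Gp1ba includes 1, but with scaling to the read totals it ran from 1.03 to 6.59, so this too depended on the scaling. The lincRNA gene Gm43904, upstream of Gp9 on the same strand, was listed at 0.

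Gp1bb (ENSMUSG00000050761), the beta chain that pairs with Gp1ba, was listed at 0 in both libraries. The exact Poisson 95% interval for a count of 0 reaches an FPKM of 0.0753 in PDR and 0.0707 in SKYD, and no ratio is given. Its exon lies on the minus strand of chromosome 16 at chr16:18620317-18622403, and in GENCODE M21 92.9% of its exon bases also belong to exons of Sept5 or the gene listed as AC133488.1, on the same strand. Sept5 had 4 reads in PDR and 2 in SKYD, and AC133488.1 had 0 in both. Among protein-coding genes of the table with at least 90% of exon bases shared in this way, 169 of 204 (82.8%) were listed at 0 in both libraries. The figure was 30.9% of the 20207 with no shared exon base. How reads in shared exons were assigned is not given in the sources used here, so the limit holds for counted reads only, and the part of the shared exons in the 0 was not tested. Of the other 9 genes, Clec1b shared 3.61% of its exon bases on the same strand, with Clec9a, and the other 8 shared none.

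Itga2b encodes integrin alpha-IIb, which with integrin beta-3 forms the fibrinogen receptor of platelets. It lies on the minus strand of chromosome 11 (ENSMUSG00000034664, chr11:102453297-102470122). Its FPKM was 1.30 in PDR (167 reads) and 0.381 in SKYD (52 reads), and PDR was 3.42 times SKYD (95% interval 2.49 to 4.76). Its partner Itgb3, which macrophages also use, went the other way. Itgb3 had 42 reads in PDR and 84 in SKYD, a ratio of 0.532 (95% interval 0.358 to 0.779). A small RNA gene inside Itga2b, Gm23563, was listed at 0 in both libraries.

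Clec1b (CLEC-2, the receptor for podoplanin, which some myeloid cells also express) and Treml1 (TLT-1, a receptor of the alpha granule membrane that reaches the surface on activation) carry signalling motifs of the ITAM and ITIM classes. Clec1b lies on chromosome 6 (ENSMUSG00000030159, chr6:129397297-129409335) and Treml1 on chromosome 17 (ENSMUSG00000023993, chr17:48359916-48367176), both on the plus strand. The 250 bases before each start, from RefSeq (GRCm38.p6, plus strand, chr6:129397047-129397296 and chr17:48359666-48359915), are shown because these receptors were the level and the unequal member of the class, with capitals as above.
Clec1b: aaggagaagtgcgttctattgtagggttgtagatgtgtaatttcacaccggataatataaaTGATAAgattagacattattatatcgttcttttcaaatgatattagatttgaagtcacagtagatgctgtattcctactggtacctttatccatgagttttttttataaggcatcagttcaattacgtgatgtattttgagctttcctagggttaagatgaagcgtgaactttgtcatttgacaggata
Treml1: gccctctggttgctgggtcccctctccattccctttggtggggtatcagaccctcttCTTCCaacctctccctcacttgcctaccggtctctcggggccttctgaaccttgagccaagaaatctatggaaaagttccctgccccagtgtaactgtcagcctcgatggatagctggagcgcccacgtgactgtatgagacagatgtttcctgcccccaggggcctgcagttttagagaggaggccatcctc
Clec1b held 1 GATA match and 0 ETS matches, and Treml1 held 1 ETS match and 0 GATA matches. Of the 10 genes, 9 had windows in the table, 10 windows in all since F13a1 had 2, and Thbs1 had none. An ETS match was found for 8 of those genes and a GATA match for 1, beside 64.1% and 16.6% of all windows of this length. Some of these windows overlap exons. Exon bases made up all 250 bases for Gp1bb, 180 for Itga2b and 75 in 1 window of F13a1.

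The FPKM of Clec1b was 2.60 in PDR (312 reads) and 2.53 in SKYD (323 reads), a ratio of 1.03 (95% interval 0.877 to 1.20). No difference was detectable, and the interval leaves room for ratios up to 1.20. Its overlapping neighbour Clec9a, on the same strand, had 79 reads in each library. The FPKM of Treml1 was 2.03 in PDR (67 reads) and 0.599 in SKYD (21 reads), and PDR was 3.39 times SKYD (95% interval 2.05 to 5.84). The Treml1 interval lies above that of Clec1b, so these receptors did not share 1 ratio. Gp6, the collagen receptor, was named after its values were seen: it had 38 reads in PDR and 9 in SKYD, a ratio of 4.49 (95% interval 2.14 to 10.6).

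Tubb1 encodes the beta-tubulin of the ring of microtubules that gives platelets their disc shape. It lies on the plus strand of chromosome 2 (ENSMUSG00000016255, chr2:174450695-174457882). Its FPKM was 2.82 in PDR (93 reads) and 0.911 in SKYD (32 reads), and PDR was 3.09 times SKYD (95% interval 2.05 to 4.78). Tubb1 thus stood with Itga2b and Treml1, all near 3 times higher in PDR, and apart from Ppbp, Gp9 and Clec1b. Its neighbour on the other strand, Atp5e, a subunit of ATP synthase, had 6193 reads in PDR and 6398 in SKYD.

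**Figure D2:**
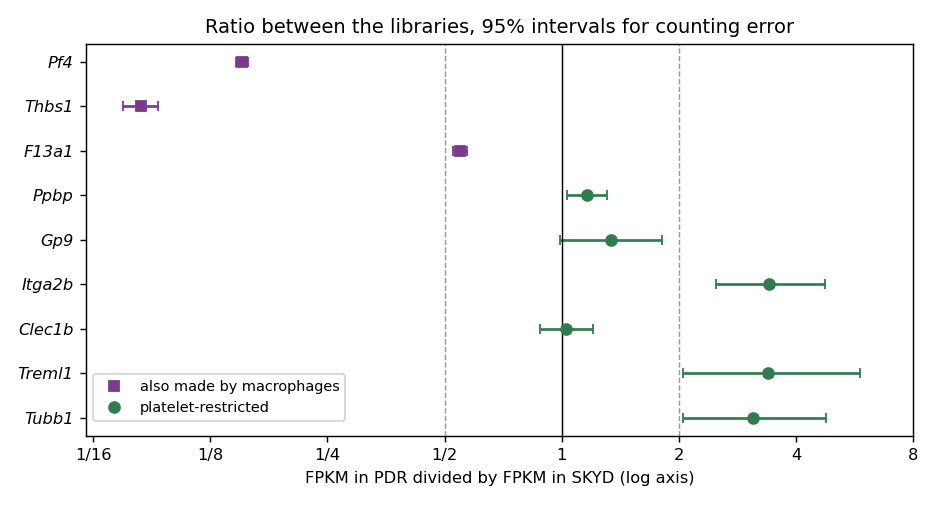
FPKM in PDR divided by FPKM in SKYD (log axis) for the 9 genes with reads, with exact 95% intervals for counting error from 1 library per group; dashed lines mark 2-fold. The intervals of Itga2b, Treml1 and Tubb1 lie above 2, those of Gp9 and Clec1b include 1 (for Gp9 not with scaling to the read totals), and those of Pf4 and Thbs1 lie far below 1.

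The reads on the platelet-restricted genes were few in both libraries. They came to 1327 in PDR, 0.00575% of the reads on genes (95% Clopper-Pearson interval 0.00544 to 0.00607%), and to 1047 in SKYD, 0.00412% (95% interval 0.00387 to 0.00437%). Without Clec1b they came to 1015 reads in PDR (0.00440%) and 724 in SKYD (0.00285%). Pf4, Thbs1 and F13a1 together had 7514 reads in PDR and 37764 in SKYD. The makeup of the platelet-restricted reads was not the same in the 2 libraries. Ppbp took 44.1% of them in PDR (95% interval 41.4 to 46.8%) and 51.3% in SKYD (95% interval 48.2 to 54.4%), and Clec1b took 23.5% and 30.9%. Itga2b took 12.6% in PDR (95% interval 10.8 to 14.5%) and 4.97% in SKYD (95% interval 3.73 to 6.46%). Tubb1 took 7.01% and 3.06%, and Treml1 5.05% and 2.01%. Gp9 kept about the same share, 7.76% and 7.83%. Shares add up to 100%, so the larger SKYD shares of Ppbp and Clec1b are the counterpart of the smaller ones, and neither gene had a higher FPKM in SKYD. Read shares also weight longer genes: by FPKM, Clec1b made up 7.09% in PDR and 9.05% in SKYD.

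**Figure D3:**
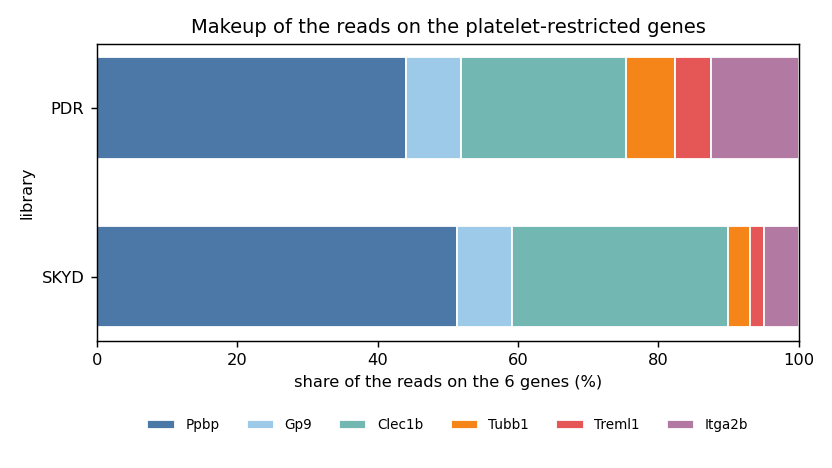
Share of the reads on the 6 platelet-restricted genes with reads that fell on each gene, in percent, for the PDR library (1327 reads) and the SKYD library (1047 reads). Tubb1, Treml1 and Itga2b take a larger share in PDR, and since shares add up to 100%, Ppbp and Clec1b take a larger share in SKYD.

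Wider platelet lists put these values in context. Beyond the 10 genes, 9 lists held 75 symbols, of which 74 were in the table (G6b was matched only as Mpig6b) and 43 were tested. Of these, 15 were higher in PDR, 2 of them past 2-fold, and 28 were higher in SKYD, 9 of them past 2-fold, on the log2(FPKM + 1) scale. Their median difference, PDR minus SKYD, was -0.29, beside -0.0035 over all 10399 tested genes, of which 5158 were higher in PDR. The 56 further genes with at least 50 reads had a smaller median log2 FPKM ratio, -0.16, beside -0.021 over all 12919 such genes. Among the 56, 12.5% had an FPKM ratio above 2 toward PDR and 19.6% toward SKYD. The share toward PDR was close to that of all genes and the share toward SKYD was higher.

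Granule cargo, the proteins that platelets release, was more often past 2-fold toward SKYD than toward PDR. Of 11 tested genes, Pf4, Thbs1, F13a1 and Ppbp included, 6 were past 2-fold toward SKYD and 1, the chaperone Clu, toward PDR, and the median difference was -1.32. Pf4 and Thbs1 are 2 of those 6, and without the 10 genes 4 of 7 were past 2-fold toward SKYD and 1 toward PDR, beside 6.91% and 7.38% of all tested genes. Sparc and Tgfb1, among those 4, are also on the authors' list of genes picked from these libraries, as Pf4 and Thbs1 are, so the count without the 10 genes is not independent of that choice. Srgn, the proteoglycan core of granules in many blood cells, had an FPKM of 628 in PDR and 1607 in SKYD. The tetraspanin Cd9 had an FPKM of 138 in PDR and 253 in SKYD. The adhesion receptor Selp and clotting factor F5 are on this list and also on the list of peritoneal macrophage markers. In the other direction, Pdgfb, named after its values were seen, had 88 reads in PDR and 13 in SKYD, a ratio of 7.2 (95% interval 4.0 to 14.1).

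Integrins and their activators went both ways. Of 6 tested genes 2 were higher in PDR and 4 in SKYD, with a median difference of -0.23. None of the 6 was past 2-fold, beside 7.38% of all tested genes toward PDR and 6.91% toward SKYD. Itga2b and Itgb3 fell under the filter, and by FPKM ratio 1 of 8 genes with at least 50 reads, Itga2b, was past 2 toward PDR and none toward SKYD. The small GTPase Rap1b had an FPKM of 419 in PDR and 470.5 in SKYD, and the adaptor Fermt3 (kindlin-3) one of 92.6 in PDR and 84.8 in SKYD. Integrin beta-1 (Itgb1) had an FPKM of 70.9 in PDR and 50.8 in SKYD, and talin (Tln1) one of 5.49 in PDR and 8.99 in SKYD. These genes are active in leukocytes too and were far more abundant than Itga2b.

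Among ITAM and ITIM receptors and signalling genes, 6 of 8 tested genes were higher in PDR, none past 2-fold on the log2(FPKM + 1) scale, and 1, Lat, was past 2-fold toward SKYD. Of all tested genes, 7.38% were past 2-fold toward PDR and 6.91% toward SKYD. By FPKM ratio, 2 of 8 genes with at least 50 reads, Treml1 and Plcg2, were past 2 toward PDR and 1, Lat, toward SKYD. The shares over all genes with at least 50 reads were 11.1% toward PDR and 12.5% toward SKYD. The median difference was 0.25. The receptor chain Fcer1g had an FPKM of 1471 in PDR and 2006 in SKYD, the adaptor Lcp2 (SLP-76) one of 35.4 in PDR and 34.4 in SKYD, the adaptor Lat, which T cells also use, one of 8.63 in PDR and 51.6 in SKYD, and the phospholipase Plcg2 one of 19.0 in PDR and 9.07 in SKYD. Of the agonist receptors, 4 were tested with a median difference of -1.17, 2 of them past 2-fold toward SKYD and none toward PDR, beside 6.91% and 7.38% of all tested genes. Of the 7 with at least 50 reads, 4 had a higher FPKM in PDR, 1 past 2, and 3 in SKYD, 2 past 2. Beside these stand 11.1% and 12.5% of all genes with at least 50 reads. The thromboxane receptor Tbxa2r had an FPKM of 5.48 in PDR and 20.3 in SKYD, and the ADP receptor P2ry12 one of 2.71 in PDR and 5.03 in SKYD. The ATP-gated channel P2rx1 had an FPKM of 0.811 in PDR and 4.66 in SKYD, and the thrombin receptor F2rl2 (PAR3) one of 3.06 in PDR and 1.34 in SKYD. The receptors were thus split, with F2rl2 alone of these 4 higher in PDR.

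The cytoskeleton list had 6 tested genes, a median difference of 0.27, 1 past 2-fold toward PDR (Myl9) and none toward SKYD. The shares over all tested genes were 7.38% toward PDR and 6.91% toward SKYD. The myosin light chain Myl9 had an FPKM of 12.9 in PDR and 3.89 in SKYD, and PDR was 3.31 times SKYD (95% interval 2.67 to 4.13). Its ratio was close to that of Tubb1. The tropomyosin Tpm4 had an FPKM of 153 in PDR and 117 in SKYD, Bin2 one of 76.7 in PDR and 68.7 in SKYD and filamin A (Flna) one of 10.6 in PDR and 12.1 in SKYD. Of 3 tested thromboxane and lipid enzymes none was past 2-fold, and the median difference was -0.50. Cyclooxygenase-1 (Ptgs1) had an FPKM of 14.5 in PDR and 26.2 in SKYD, and thromboxane synthase (Tbxas1) one of 7.98 in PDR and 11.7 in SKYD. The phospholipase Pla2g4a had an FPKM of 5.28 in PDR and 4.03 in SKYD, and the platelet-type lipoxygenase Alox12 one of 0.969 in PDR and 0.862 in SKYD.

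Regulators of megakaryocyte formation had 5 tested genes and a median difference of -0.56. The transcription factor Nfe2 had an FPKM of 24.8 in PDR and 37.0 in SKYD, Fli1 one of 9.71 in PDR and 9.06 in SKYD and Mafg one of 3.03 in PDR and 5.20 in SKYD. Gfi1b, a transcriptional repressor active in erythroid and megakaryocyte cells, had an FPKM of 1.91 in PDR and 15.2 in SKYD. It was the only tested gene of the list past 2-fold, toward SKYD. Gfi1b thus went the other way from Itga2b, Treml1 and Tubb1. Of the 11 other platelet genes 6 were tested, with a median difference of -0.22, 1 past 2-fold toward SKYD (Rgs18) and none toward PDR. For both lists, the shares over all tested genes were 6.91% toward SKYD and 7.38% toward PDR. Pleckstrin (Plek) had an FPKM of 87.7 in PDR and 56.5 in SKYD, the signalling regulator Rgs18 one of 19.3 in PDR and 46.0 in SKYD, the adhesion receptor Cd226 one of 23.7 in PDR and 26.3 in SKYD, and Ctla2a one of 18.1 in PDR and 22.5 in SKYD. Slc35d3 and Trpc6 had 0 reads in both libraries.

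**Figure D4:**
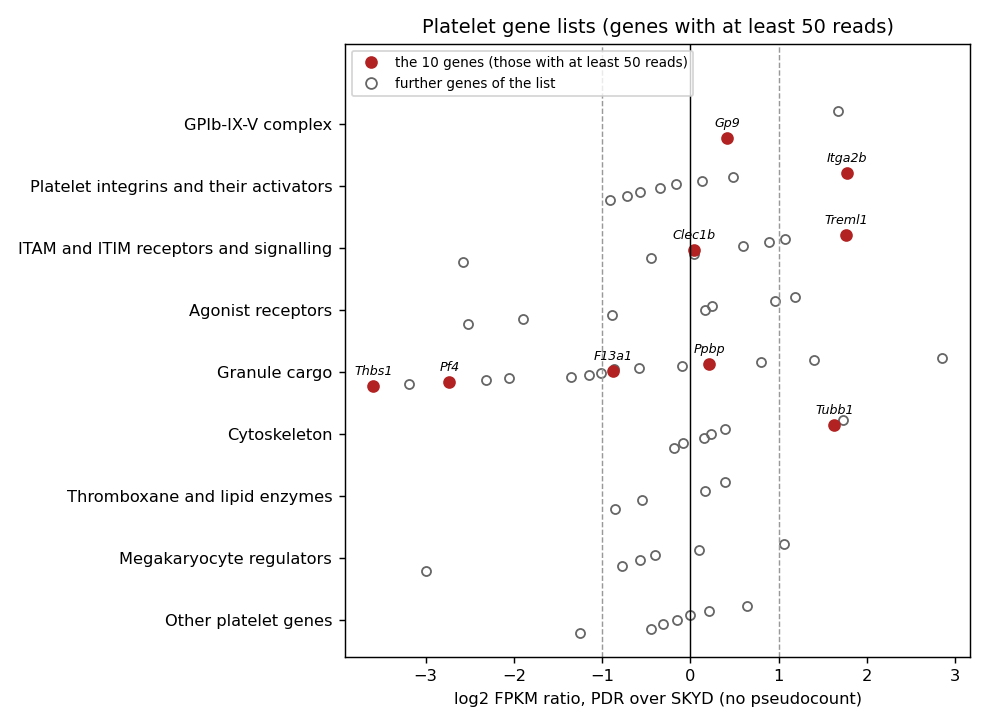
Log2 FPKM ratio of PDR over SKYD, without pseudocount, for genes with at least 50 reads over both libraries in 9 platelet gene lists (1 point per gene, filled for the 10 genes, with dashed lines at 2-fold). Thbs1 and Pf4 lie far to the SKYD side of the granule cargo list, and Itga2b, Treml1 and Tubb1 lie to the PDR side of their lists.

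Markers of other cells were summed beside these genes. For the counts of marker lists, here and below, 7.38% of all tested genes were past 2-fold toward PDR and 6.91% toward SKYD. The macrophage list was present in both libraries, 12 of 12 genes tested, with a summed FPKM of 24916 in PDR and 48205 in SKYD and Lyz2 as its most abundant gene. The sorted markers themselves were detected: Adgre1, the gene of F4/80, had an FPKM of 87.3 in PDR and 93.3 in SKYD, and Itgam, the gene of CD11b, one of 8.84 in PDR and 14.4 in SKYD. Of the macrophage markers 10 of 12 were higher in SKYD, the direction of Pf4, Thbs1 and F13a1, 4 of them past 2-fold, with a median difference of -0.65. Peritoneal macrophage markers had the same direction, with a summed FPKM of 1036 in PDR and 3252 in SKYD, Saa3 as the most abundant gene, and 8 of 15 tested genes past 2-fold toward SKYD and none toward PDR. The summed macrophage list was 1.93 times higher in SKYD and the summed peritoneal list 3.14 times, sums to which Lyz2 and Saa3 gave the most. A few single markers differed about as much as Pf4 and Thbs1, and the others differed less or went the other way. Named after their values were seen, as the widest of their lists, Cd14 was 6.30 times, Vsig4 12.2 times and Cxcl13 12.7 times higher in SKYD. Also named after their values were seen, the macrophage markers Csf1r and Fcgr1 were higher in PDR, by 1.28 and 1.47 times. Timd4, of the peritoneal list, was nearly level, with an FPKM of 25.4 in PDR and 25.3 in SKYD. Cxcl13, Saa3 and Fn1, of the peritoneal list, are also on the authors' list of genes picked from these libraries. Their direction is not independent of that choice. The part of these cells in the levels of Pf4, Thbs1 and F13a1 was not tested.

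Other lists went with Itga2b, Treml1 and Tubb1 toward PDR. All 10 hepatocyte markers were past 2-fold toward PDR, with a summed FPKM of 2270.3 in PDR and 763 in SKYD (2.98 times higher in PDR) and Apoa2 as the most abundant gene. Neutrophil markers were higher in PDR in 8 of 9 genes, 4 past 2-fold, with a summed FPKM of 4811 in PDR and 3629 in SKYD and S100a9 as the most abundant gene. All 5 monocyte markers were higher in PDR, 1 past 2-fold, with a summed FPKM of 5669 in PDR and 3240.4 in SKYD and Chil3 as the most abundant gene. These lists shared no gene with the platelet lists, and their part in the ratios of Itga2b, Treml1 and Tubb1 was not tested.

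Erythroid RNA was plentiful, and its genes were split in direction. Of 7 tested erythroid genes 3 were higher in PDR (1 past 2-fold) and 4 in SKYD, with a summed FPKM of 21022 in PDR and 28348 in SKYD and Hba-a1 as the most abundant gene. Ermap was at 0 in both libraries, and Epor and Klf1 were at 0 in PDR. Mast cell and basophil markers had a summed FPKM of 32.4 in PDR and 34.0 in SKYD, with Prss34 as the most abundant gene, 1 of 5 tested genes past 2-fold toward PDR and 1 toward SKYD, and Mcpt4 at 0 in both. Endothelial markers were low, with 1 of 8 genes tested and a summed FPKM of 4.77 in PDR and 3.54 in SKYD, most of it from Pecam1, which leukocytes and platelets also carry. Pecam1 and Vwf are on the platelet lists too, and Emcn was at 0 in PDR.

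**Figure D5:**
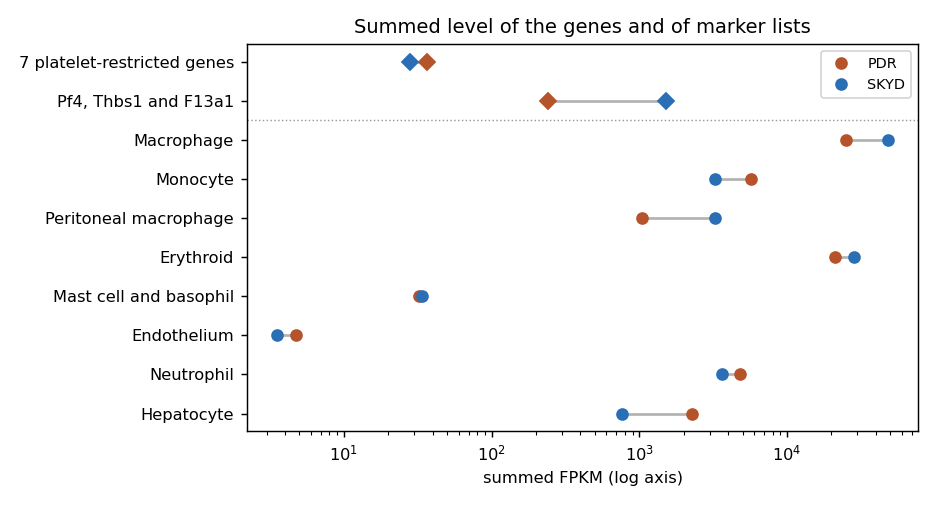
Summed FPKM (log axis) of the 7 platelet-restricted genes, of Pf4, Thbs1 and F13a1, and of 8 marker lists in the PDR and SKYD libraries (1 pooled library each, lines join the libraries). Pf4, Thbs1 and F13a1 lie on the same side as the macrophage, peritoneal macrophage and erythroid lists. The platelet-restricted genes lie on the side of the hepatocyte, neutrophil and monocyte lists, at a far lower level than these. The endothelial list, lower still, lies on that side too, and the mast cell and basophil list is nearly level.

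By level alone, the tested genes nearest to Pf4 over the 2 libraries, by Euclidean distance in log2(FPKM + 1), were the T cell receptor constant genes Trbc2 (FPKM 261 in PDR and 1995 in SKYD) and Trbc1 (FPKM 133 in PDR and 1574 in SKYD) and the macrophage marker Cd14 (FPKM 149 in PDR and 938 in SKYD). Those nearest to Ppbp were Slc25a1, Prps1l3 and Aimp2, at distances of 0.0107, 0.0260 and 0.0260, beside 0.533 to 0.830 for Pf4. Genes at nearly the same levels as Ppbp were thus found, and the nearest to Pf4 stood further off. With 2 libraries this likeness is only of levels.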

How the data were processed

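RNA of sorted aortic macrophages was sequenced as 1 library of 5 pooled mice for PDR and 1 for SKYD. Reads were aligned with TopHat2 2.0.9 and Bowtie2 2.0.6 and counted per gene with HTSeq 0.6.1, per the submitters' processing notes, and the authors deposited the values as FPKM. Counting mode and strand are not given in the sources used here. The notes list mm9, but 98.3% of the 54409 table genes found in GENCODE M21 have its GRCm38 start and end, so positions are on GRCm38.

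Reads per gene were recovered as FPKM times gene length over the value of 1 read, and 100% of values above 0 came within 0.01 of a whole number in both libraries. The tested genes were those whose FPKM averaged 1 or more over the libraries. Their values were set side by side on the log2(FPKM + 1) scale, which understates the change of low genes, and differences past 2-fold were counted. The FPKM ratio for genes with at least 50 reads over both libraries, with counts under 3 set to 3, was added after seeing the data, as were scaling to the reads on genes, the 90% limit on shared exon bases and the promoter motifs. Recovery and counts were tested on simulated data, and no value given here comes from that test. The work used scipy 1.17.1, numpy 2.4.6, matplotlib 3.10.9 and pandas 2.3.3 under Python 3.11.15.

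The 10 genes are named throughout. Of each further list the 4 genes with the highest mean FPKM and those with at most 3 reads in both libraries are named, of each marker list the most abundant gene, and also the genes within 5 kb of the 10 and the 3 tested genes nearest to Pf4 and to Ppbp. Genes named outside these rules were named after their values were seen. The genes and lists were chosen with earlier results of these data known. Pf4 and Thbs1, and of the further platelet genes Sparc, Tgfb1, Tbxa2r and Mylk, are among the genes that the authors picked from these libraries. Of the marker lists, Saa3, Fn1, Cxcl13, Cyp2e1, Epor and Tie1 are among them too. The direction of all these genes is not independent of that choice. Alternatives were other pseudocounts, filters, thresholds and scalings, protein-coding genes only and summed levels.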

Additional observations from a re-analysis of the deposited data

How the results depend on the processing

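Filters and gene type leave the value of a single gene as it is, and a pseudocount cannot turn its sign, so these alternatives bear only on its size. The values that left a gene's counting interval, 14 in all, belong to Thbs1, Itga2b, Treml1 and Tubb1. All 4 genes moved further from 0 with a smaller or no pseudocount, and Thbs1 and Itga2b also on the TPM scale. With no pseudocount, chosen after seeing the data, the log2 differences were -3.59 for Thbs1, 1.77 for Itga2b, 1.76 for Treml1 and 1.63 for Tubb1, beside -3.19, 0.74, 0.92 and 0.998 with a pseudocount of 1. Tubb1 was past 2-fold with every other pseudocount, on the TPM scale, after centring and when scaled to the reads on genes, and Treml1 was past it with every other pseudocount and on the TPM scale.

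The median difference of the tested platelet-restricted genes was 0.34. It was 0.38 when scaled to the reads on genes, 0.67 on the TPM scale, where Itga2b passed the filter, and 1.02 with no pseudocount and at least 50 reads. With no filter it was 0.54, but Gp1bb, at 0 in both libraries, was still left out. With pseudocounts of 0.1 and 0.01 it was 0.41 and 0.42, and as the log2 ratio of summed FPKM it was 0.36. At a mean FPKM of at least 5 it was 0.20, from Ppbp alone. The median of Pf4, Thbs1 and F13a1 was -2.72, and the log2 ratio of their summed FPKM was -2.65. The genes past 2-fold numbered 767 toward PDR and 719 toward SKYD. They numbered 464 and 373 at a mean FPKM of at least 5, 194 and 216 at a 4-fold threshold, and 1430 and 1611 with no pseudocount and at least 50 reads. They numbered 542 and 473 with protein-coding genes only, 1057 and 1010 with a pseudocount of 0.1, 1096 and 1048 with 0.01, 1047 and 948 on the TPM scale, and 817 and 671 when scaled to the reads on genes, an alternative chosen after seeing the data. Fewer genes enter the stricter filters.

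Depth limits the precision of low genes: Treml1 and Tubb1 had 21 and 32 reads in SKYD. The spread between mice or libraries of 1 group was not measured, and the intervals do not cover it. No paired analysis was possible because each group has 1 library.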
